A study of Homo sapiens with 8 samples.

Results

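Glycolysis and hypoxia response genes were followed in a human multiple myeloma cell line that resists melphalan, U266/LR7, and in its parent, U266/s. The 37 genes were given by name and cover glucose uptake, the glycolytic enzymes, regulators of glycolytic flux, the oxygen sensing machinery and genes induced by low oxygen. A gene counted as measured where a transcript cluster of the array carried its symbol alone, and of several such clusters the brightest was used. This held for 33 of the 37 genes, out of 18417 genes measured in the same way. PGAM1, a mutase of the glycolytic pathway, was named on 5 clusters together with other genes, and SLC16A1, SLC16A3 and CA9 had no cluster of their own here, so these 4 were not analysed.

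The 8 arrays held 1 sample each of 8 conditions. In each line there were cells given melphalan at 100 µM together with inhibitors of miR-221 and miR-222 at 100 nM, cells given melphalan alone, cells transfected with the inhibitors alone, and cells transfected with a negative control oligonucleotide. RNA was collected 12 h after treatment. Melphalan is a nitrogen mustard that crosslinks DNA. For the arrays with melphalan alone the transfection tag reads none, whereas the protocol describes a negative control oligonucleotide, so the melphalan and inhibitor differences may also hold a transfection difference. No low-oxygen treatment is described for any sample. Each line is a single cell line. Whether the samples were grown as separate cultures is not stated. With 1 array per condition, no spread between replicates was measured. The p-values rest instead on how the inhibitor difference varied between array pairs. That variation may be purely technical, or may hold inhibitor or transfection effects that differ by line or melphalan state.

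Glycolysis splits glucose into pyruvate, and in dividing tumour cells much of that pyruvate is reduced to lactate even where oxygen is present. When oxygen is scarce, the transcription factor subunit HIF1A escapes hydroxylation by the EGLN enzymes, pairs with ARNT and binds short elements near glucose transporter, glycolytic and stress genes. The bone marrow, where myeloma cells grow, is a poorly oxygenated tissue.

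All values are log2 signals or differences of log2 signals, so a difference of 1 is a doubling. A difference was called at an adjusted p under 0.05 from limma, with Benjamini-Hochberg adjustment over all 18417 genes. Errors are standard errors of a model shared by all arrays. Members given array by array were mostly chosen by their called differences. A lack of overlap between their arrays describes them and adds no further support. The interquartile range of an array was 3.62 to 3.71 in U266/LR7, compared with 3.58 and 3.70 in U266/s without melphalan, but 3.25 and 3.34 in U266/s with melphalan. The plasma cell markers averaged 10.22 to 10.56 on the U266/LR7 arrays and 9.59 to 10.19 on the U266/s arrays. They ran both ways between the lines without melphalan. SLAMF7 (1.94), SDC1 (1.6), TNFRSF17 (1.45) and CD38 (0.8) were higher in U266/LR7 and MZB1 (-2.43) and PRDM1 (-0.32) lower. XBP1 (0.22) and IRF4 (-0.09) were not called. B cell, T cell, myeloid and stromal marker lists averaged 5.34 to 6.84, near or below the median of all genes (7.35). The epithelial list averaged 6.77 to 7.14 on the U266/LR7 arrays and 6.86 to 7.43 on the U266/s arrays. Its members ran both ways between the lines without melphalan, with KRT8 at 0.69 (adjusted p = 0.00574), EPCAM at -2.49 (adjusted p = 2.06e-06) and CDH1 at -0.56 (adjusted p = 0.00562), and KRT18 read 8.34 to 9.16 over all arrays. In these bulk samples, less RNA per cell and fewer cells holding that RNA cannot be told apart.

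The promoters of 4 genes are shown because these genes had the largest called differences in each direction, ALDOC and HK2 between the lines without melphalan and ANKRD37 and HIF1A with melphalan in U266/s. Each run holds the 250 bases before the RefSeq gene start in build GRCh38.p14, with the hypoxia response core in capitals, searched as ACGTG or GCGTG on either strand, overlapping matches included.
ALDOC, chr17:28576896-28577145, minus strand: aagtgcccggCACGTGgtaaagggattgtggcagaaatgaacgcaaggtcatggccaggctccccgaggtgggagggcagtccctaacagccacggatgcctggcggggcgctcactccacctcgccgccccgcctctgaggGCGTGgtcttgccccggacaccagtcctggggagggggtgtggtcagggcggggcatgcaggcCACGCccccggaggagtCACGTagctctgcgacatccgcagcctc
HK2, chr2:74833877-74834126, plus strand: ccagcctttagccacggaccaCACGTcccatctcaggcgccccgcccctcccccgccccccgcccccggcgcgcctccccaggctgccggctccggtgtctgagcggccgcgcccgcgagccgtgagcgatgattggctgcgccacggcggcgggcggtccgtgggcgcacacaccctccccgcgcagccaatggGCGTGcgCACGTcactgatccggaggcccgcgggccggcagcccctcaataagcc
ANKRD37, chr4:185396591-185396840, plus strand: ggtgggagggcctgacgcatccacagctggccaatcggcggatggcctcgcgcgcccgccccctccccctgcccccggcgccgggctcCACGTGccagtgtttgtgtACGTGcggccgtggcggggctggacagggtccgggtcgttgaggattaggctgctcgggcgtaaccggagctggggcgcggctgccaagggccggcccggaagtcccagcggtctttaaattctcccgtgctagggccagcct
HIF1A, chr14:61695263-61695512, plus strand: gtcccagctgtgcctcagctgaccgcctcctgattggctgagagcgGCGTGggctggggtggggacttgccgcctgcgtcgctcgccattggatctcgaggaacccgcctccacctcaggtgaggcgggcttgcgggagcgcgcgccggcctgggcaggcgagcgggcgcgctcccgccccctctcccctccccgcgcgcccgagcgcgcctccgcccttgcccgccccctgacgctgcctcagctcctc

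ALDOC had 5 core matches in this window, HK2 and ANKRD37 had 3 each, and HIF1A had 1. Windows were at hand for 29 of the 33 genes, the others being SLC2A3, BNIP3L, VEGFA and NDRG1. The core was present in 21 of these 29 windows (72.4%), against 11763 of 27305 windows of the whole table (43.1%) and 50.5% of the windows of protein-coding genes. BNIP3 had 6 matches and LDHA 5, whereas SLC2A1, HK1, PFKM, PFKP, TPI1, PKM, PDK1 and EGLN3 had 0 in the window. Genes with the core were found in both directions. It was present in 5 of 7 genes higher in U266/LR7 without melphalan and in 5 of 9 lower ones. With melphalan in U266/s it was present in all 4 genes that rose and in 7 of 11 that fell. Members not called carried it in 11 of 13 cases for the line difference (84.6%) and in 10 of 14 for melphalan in U266/s (71.4%).

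Without melphalan, the resistant line had less HK2, SLC2A3, SLC2A1 and PFKFB3 RNA than its parent and more ALDOC, BNIP3, ADM, ENO2, P4HA1 and HK1 RNA. HK2 was the member with the largest difference, 5.94-fold lower in U266/LR7, and ALDOC was 2.79-fold higher. Of the 33 genes, 8 were higher (24.2%) and 11 lower (33.3%) in U266/LR7, against 16.9% and 17.8% of all genes tested. The median difference was -0.05, against -0.04 over all genes.

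Both glucose transporter genes measured among the members were lower in U266/LR7. Related transporter genes outside the members went both ways, with SLC2A12 (1.66) and SLC2A6 (0.6) called higher and SLC2A8 (-1.08) and SLC2A9 (-0.6) called lower. SLC2A1, which encodes the widely expressed transporter GLUT1, read 9.17 and 8.96 with and without inhibitors in U266/LR7, compared with 10.51 and 10.18 in U266/s. The lines did not overlap, and the difference was -1.29 ± 0.15 (adjusted p = 3.28e-05). SLC2A3, the gene of the high-affinity transporter GLUT3, read 5.35 and 5.31 in U266/LR7, compared with 6.76 and 7.26 in U266/s, a difference of -1.68 ± 0.16 (adjusted p = 1.07e-05). Its U266/LR7 values lay under the lower quartile of all genes (5.91), which limits the size of this difference.

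Among the glycolytic enzymes the lines differed by isozyme. Hexokinases phosphorylate glucose in the first step. HK2 read 8.01 and 7.82 in U266/LR7, compared with 10.36 and 10.61 in U266/s (-2.57 ± 0.16, adjusted p = 2.72e-07). HK1, the more widely expressed hexokinase, ran the other way, with 8.08 and 7.75 in U266/LR7 and 7.0 and 6.79 in U266/s (1.02 ± 0.13, adjusted p = 0.000103). In neither gene did the lines overlap. ALDOC, the aldolase known best from brain, read 11.13 on both U266/LR7 arrays, against 9.77 and 9.53 in U266/s (1.48 ± 0.13, adjusted p = 3.45e-06). ALDOA, the aldolase known from muscle and most other tissues, read 10.43 and 10.36 in U266/LR7, compared with 10.63 and 10.56 in U266/s, and was not called (-0.20 ± 0.12, adjusted p = 0.245). The enolases split likewise. ENO2, the neuronal enolase, was higher in U266/LR7 by 1.16 ± 0.16 (adjusted p = 0.000127), with 9.98 and 10.11 against 8.97 and 8.81. ENO1, the widely expressed enolase, read 13.65 and 13.28 in U266/LR7 and 13.57 and 13.47 in U266/s, values that overlapped (-0.05 ± 0.09, adjusted p = 0.748).

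Of the 15 measured enzymes, 3 were higher (20%) and 6 lower (40%) in U266/LR7, against 16.9% and 17.8% of all genes. The other lower ones were GPI, the isomerase that follows hexokinase (-0.75 ± 0.10, adjusted p = 0.000106), and the phosphofructokinases PFKP (-0.75 ± 0.14, adjusted p = 0.00111) and PFKM (-0.67 ± 0.16, adjusted p = 0.00538). TPI1, a triose phosphate isomerase, and GAPDH, a dehydrogenase of the same pathway, were lower by small amounts, with differences of -0.33 and -0.26, and these calls were lost in 5 and 4 of 17 settings. The PFKM call was lost in 1 setting, without the U266/s control array (adjusted p = 0.0657). TPI1 was also measured by a second, dimmer cluster, which read 10.11 and 10.04 in U266/LR7 and 10.63 and 10.50 in U266/s. The third phosphofructokinase, PFKL, stood at 0.24 ± 0.13 (adjusted p = 0.198). LDHA, which reduces pyruvate to lactate, stood at -0.20, PGK1 at -0.11 and PKM at 0.00, none of them called.

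The flux regulators went both ways. PFKFB3, which makes the allosteric activator of phosphofructokinase, read 8.43 and 7.81 in U266/LR7, compared with 9.31 and 9.35 in U266/s (-1.21 ± 0.20, adjusted p = 0.000488). The U266/LR7 arrays themselves differed by 0.63 in this gene. PDK1, a kinase that shuts off pyruvate dehydrogenase, was higher by 0.52 ± 0.13 (adjusted p = 0.00856). Its difference was 0.48 to 0.56 over the settings, but the call was lost without the U266/s control or inhibitor array (largest adjusted p = 0.0945). PFKFB4 (0.03) and the related kinase PDK3 (0.06) were not called.

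Of the 3 oxygen sensing members, 1 was lower in U266/LR7 without melphalan (33.3%, against 17.8% of all genes) and 0 were higher (against 16.9%). HIF1A read 11.32 and 10.14 in U266/LR7 and 10.50 and 10.32 in U266/s, and the ranges overlapped (0.32 ± 0.20, adjusted p = 0.281). EGLN1, the main hydroxylase that marks HIF1A for destruction, was lower by 0.46 in U266/LR7 (adjusted p = 0.0414), a call lost in 10 of 17 alternative settings. EGLN3, a hydroxylase that is itself induced by hypoxia, stood at -0.21.

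Of the 9 hypoxia-induced genes 4 were higher in U266/LR7 (44.4%) and 1 was lower (11.1%), against 16.9% and 17.8% of all genes. BNIP3, a mitophagy receptor of the outer mitochondrial membrane, read 10.97 and 10.96 in U266/LR7, compared with 9.70 and 9.63 in U266/s (1.30 ± 0.13, adjusted p = 1.7e-05). Its relative BNIP3L was higher by 0.84 ± 0.11 (adjusted p = 9.19e-05). ADM, the gene of the vasodilator peptide adrenomedullin, read 8.72 and 9.21 against 7.81 and 7.73 (1.19 ± 0.17, adjusted p = 0.000188). P4HA1, a subunit of the enzyme that hydroxylates collagen prolines, read 8.67 and 8.23 against 7.27 and 7.52 (1.06 ± 0.17, adjusted p = 0.00054). VEGFA, an angiogenic growth factor, was the lower one, at 8.89 and 8.44 in U266/LR7 and 9.46 and 9.22 in U266/s (-0.67 ± 0.14, adjusted p = 0.003). NDRG1 (0.31), KDM3A (0.10), ANKRD37 (0.08) and ERO1A (-0.21) were not called.

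**Figure D1:**
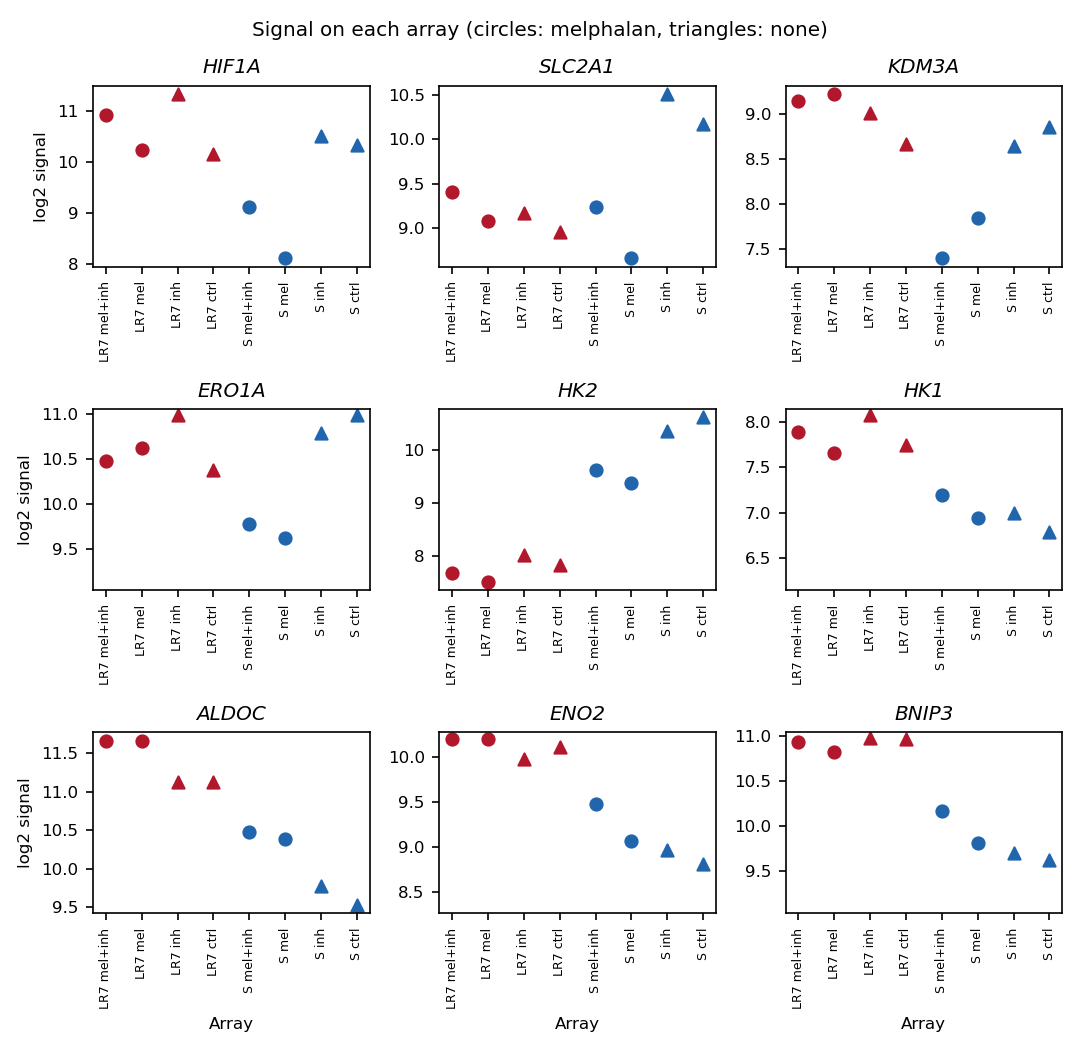
Log2 signal (y axis) of 9 genes on each of the 8 arrays (x axis), U266/LR7 in red and U266/s in blue, with circles for arrays with melphalan and triangles for arrays without; mel is melphalan, inh the inhibitors and ctrl the negative control. HK2 lay between 7.51 and 8.01 in U266/LR7 and between 9.38 and 10.61 in U266/s, and HIF1A was lowest on the U266/s arrays with melphalan, at 8.10 and 9.10.

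In U266/s with melphalan, HIF1A, SLC2A1, ERO1A, KDM3A and HK2 fell and ANKRD37, ALDOC, ADM and PFKL rose. HIF1A fell most, 3.51-fold, and ANKRD37 had the largest rise, 1.98-fold. Of the 33 genes, 4 rose (12.1%) and 13 fell (39.4%), against 18.4% and 24.9% of all genes tested. The balance depended on the scaling, since 7 rose and 11 fell with median centring, 8 rose and 11 fell with quantile normalization, and 10 rose and 8 fell with cyclic loess. In these settings 47.7%, 44.5% and 38.3% of all genes were called in either direction. Without the U266/s control array 2 members rose and 6 fell, and 23.1% of all genes were called.

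HIF1A read 9.10 and 8.10 with melphalan (with and without inhibitors), against 10.50 and 10.32 without it, a fall of 1.81 ± 0.20 (95% interval of the difference -2.26 to -1.36, adjusted p = 4.2e-05). No U266/s array with melphalan reached the level of one without. SLC2A1 read 9.24 and 8.66 against 10.51 and 10.18 (-1.40 ± 0.15, adjusted p = 2.45e-05). HK2 read 9.62 and 9.38 against 10.36 and 10.61 (-0.99 ± 0.16, adjusted p = 0.000466). In all 3 genes, which were named for their called falls, the arrays with melphalan lay below those without.

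Among the hypoxia-induced genes, those that fell were ERO1A, an oxidase that forms disulfide bonds in the endoplasmic reticulum, KDM3A, a histone lysine demethylase, P4HA1 and VEGFA. ERO1A read 9.78 and 9.62 with melphalan, against 10.78 and 10.98 without (-1.19 ± 0.18, adjusted p = 0.000334). KDM3A read 7.39 and 7.84 against 8.64 and 8.85 (-1.13 ± 0.18, adjusted p = 0.000479). P4HA1 fell by 0.85 ± 0.17 (adjusted p = 0.00238), and by 0.58 without the U266/s control array, where it was not called (adjusted p = 0.0577). VEGFA fell by 0.45, a call lost in 9 of 17 settings. Other hypoxia-induced genes rose. ANKRD37, an ankyrin repeat gene known as a HIF1 target, read 8.10 and 8.21 with melphalan, against 7.22 and 7.11 without (0.99 ± 0.15, adjusted p = 0.000272). ADM rose by 0.59 ± 0.17 (adjusted p = 0.0161), and this call was lost without the U266/s control array or the array with melphalan and inhibitors (largest adjusted p = 0.184). BNIP3 (0.32), NDRG1 (0.28) and BNIP3L (0.20) were not called.

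Among the 15 enzymes, 2 rose (13.3%) and 5 fell (33.3%) in U266/s, against 18.4% and 24.9% of all genes. ALDOC read 10.48 and 10.38 with melphalan, against 9.77 and 9.53 without (0.78 ± 0.13, adjusted p = 0.000472), and PFKL rose by 0.49 ± 0.13 (adjusted p = 0.0118). PFKM fell by 0.69 ± 0.16 (adjusted p = 0.0043), so that the phosphofructokinases moved in opposite directions. The PFKM fall no longer passed after quantile or cyclic loess normalization, nor without the U266/s control or melphalan array. The PFKL call was lost without the control array or without either melphalan array, and its difference was 0.80 with cyclic loess normalization. PFKP, PGK1 and LDHA fell by 0.38, 0.34 and 0.30, and these calls were lost in 12, 8 and 6 of 17 settings. PDK1 read 8.99 and 9.23 with melphalan, against 9.73 and 9.99 without (-0.75 ± 0.13, adjusted p = 0.000843), a difference of -0.42 with quantile normalization. SLC2A3 fell by 0.54 (adjusted p = 0.0213), a call lost in 4 of 16 settings. GAPDH (0.12), PKM (0.18), TPI1 (-0.10), ENO1 (-0.19), GPI (-0.20) and ALDOA (0.04) were not called. The second TPI1 cluster read 10.76 and 10.68 with melphalan, against 10.63 and 10.5 without.

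The genes that fell in U266/s spanned more of the genome than those that rose. The median span was 52.7 kb over the 13 that fell and 3.83 kb over the 4 that rose, with 31.4 kb over the 16 not called. The same order held over all protein-coding genes tested, with medians of 57.8 kb for 4535 genes that fell, 11.9 kb for 2897 that rose and 22.9 kb for the rest. PDK1 (169 kb) and P4HA1 (89.7 kb) were the longest that fell, and ADM, ALDOC and ANKRD37 spanned 2.33, 3.78 and 3.88 kb. The longest span of all, 182 kb, belonged to PFKFB3, which was not called (-0.47, adjusted p = 0.0739). The response in U266/s also differed by signal level, without a steady trend. Its median was 0.15 for genes of mean signal under 6, 0.18 for 6 to 8 and -0.26 for 8 to 10. For 10 to 12 it was -0.25, and over 12, where 7 members lay, it was -0.05. On the same arrays 5 of 8 plasma cell markers fell (62.5%) and 1 rose (12.5%), against 24.9% and 18.4% of all genes. Of 5 myeloid markers 2 rose (40%), CD68 (1.88) and CD14 (1.47), while ITGAM (0.26), LYZ (0.2) and CSF1R (-0.05) were not called. The myeloid list averaged 6.81 and 6.84 with melphalan, against 6.15 and 6.0 without. The part of span, signal level or these markers in the members' changes was not tested.

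In U266/LR7, ALDOC and PDK1 were the members that passed the test with melphalan. ALDOC read 11.66 on both arrays with melphalan, against 11.13 on both without (0.53 ± 0.13, adjusted p = 0.0307). PDK1 read 9.81 and 9.96 with melphalan, against 10.30 and 10.46 without (-0.50 ± 0.13, adjusted p = 0.0471). Both also changed in U266/s, in the same direction. These counts, 1 higher (3.03%) and 1 lower (3.03%), stand against 3.02% and 3.61% of all genes. The ALDOC call was lost in 9 of 17 alternative settings and the PDK1 call in 11 of 17, while neither value changed sign.

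The other members showed smaller differences in U266/LR7. HIF1A stood at -0.17 ± 0.20, with an interval of -0.62 to 0.28, and its pairs ran in opposite directions, 0.08 without inhibitors and -0.42 with them. SLC2A1 stood at 0.18 (interval -0.14 to 0.50), KDM3A at 0.34 (-0.06 to 0.74), ERO1A at -0.13 (-0.53 to 0.27) and HK2 at -0.33 (-0.68 to 0.02). HK2 was lower with melphalan in both U266/LR7 pairs, by 0.34 and 0.32. PFKFB4, a bifunctional enzyme related to PFKFB3, had the largest difference among those not called, 0.46 ± 0.14 (adjusted p = 0.0728), followed by ANKRD37 at 0.37.

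**Figure D2:**
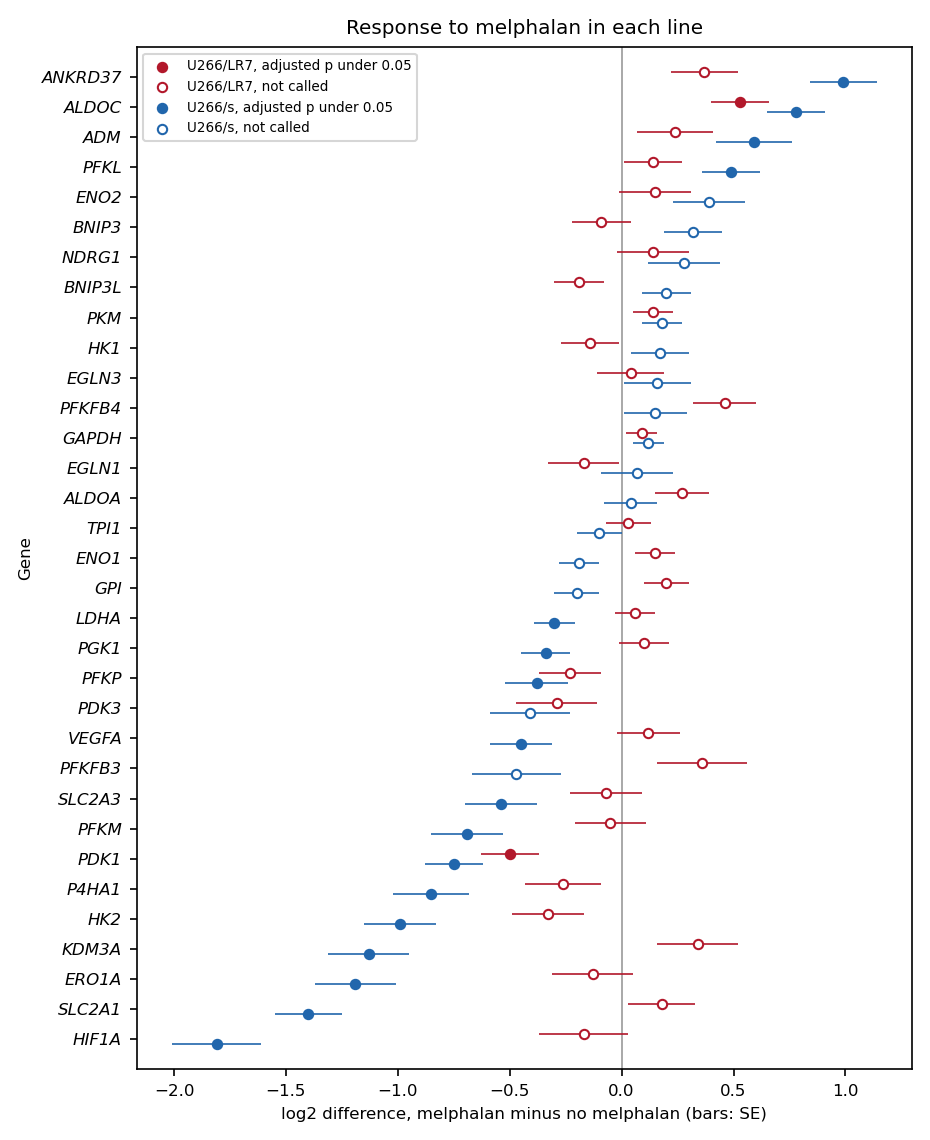
Log2 difference between arrays with and without melphalan (x axis, bars are standard errors) for each of the 33 genes (y axis), in U266/LR7 (red) and U266/s (blue), with filled points for an adjusted p under 0.05. HIF1A, SLC2A1, ERO1A and KDM3A lay between -1.81 and -1.13 in U266/s and between -0.17 and 0.34 in U266/LR7.

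The response to melphalan differed between the lines for SLC2A1, HIF1A, KDM3A and ERO1A. The interaction, the response in U266/LR7 minus that in U266/s, was 1.58 ± 0.21 for SLC2A1 (adjusted p = 0.000407), 1.64 ± 0.29 for HIF1A (adjusted p = 0.00197) and 1.47 ± 0.26 for KDM3A (adjusted p = 0.00191). For ERO1A it was 1.06 ± 0.26 (adjusted p = 0.0114), which missed the threshold after quantile or cyclic loess normalization and when either the U266/LR7 melphalan array or the U266/s control array was left out. In each of the 4 genes the fall was in U266/s. These 4 are 12.1% of the members, against 17.9% of all genes with a positive interaction, and 0 members had a negative one, against 5.99%. The 4 positive and 0 negative calls became 5 and 5 with quantile normalization, 3 and 4 with cyclic loess and 4 and 2 with median centring, where 24.1%, 21.2% and 24.5% of all genes were called in either direction.

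Further members lay just short of the threshold, among them PFKFB3 (0.82, adjusted p = 0.0525), ANKRD37 (-0.61, adjusted p = 0.053), HK2 (0.66, adjusted p = 0.0533) and PFKM (0.63, adjusted p = 0.0587). Among genes above the median signal, 12 of 30 members had a called positive interaction and 1 a negative one, in a setting where 40.4% of all genes were called in either direction, so the members stood close to the background. PDK1 (0.25 ± 0.19, adjusted p = 0.362) and ALDOC (-0.25 ± 0.18, adjusted p = 0.342), which changed in both lines, had no called interaction.

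With melphalan present, U266/LR7 had more HIF1A, P4HA1, KDM3A, ALDOC and ENO2 RNA than U266/s and less HK2 and SLC2A3 RNA. HIF1A was 3.89-fold higher and P4HA1 3.14-fold higher, while HK2 was 3.74-fold lower. Of the 33 genes 13 were higher (39.4%) and 7 lower (21.2%) in U266/LR7, against 27.7% and 24% of all genes. With cyclic loess normalization 11 were higher and 14 lower, so the balance turned. The split was 12 and 9 with median centring and 14 and 10 with quantile normalization. With cyclic loess, median centring and quantile normalization, 44.1%, 55.4% and 47.7% of all genes were called in either direction.

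HIF1A read 10.91 and 10.22 with melphalan in U266/LR7, compared with 9.10 and 8.10 in U266/s (1.96 ± 0.20, adjusted p = 1.52e-05). P4HA1 read 8.24 and 8.15 against 6.71 and 6.37 (1.65 ± 0.17, adjusted p = 1.65e-05). KDM3A read 9.14 and 9.22 against 7.39 and 7.84 (1.56 ± 0.18, adjusted p = 3.25e-05). The lines did not overlap in these 3 genes, which were named for their called differences. ERO1A was higher by 0.85 ± 0.18 (adjusted p = 0.00229), and by 0.48 with cyclic loess normalization (adjusted p = 0.0458).

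The HK2, HK1, ALDOC, ENO2 and SLC2A3 differences seen without melphalan were also called with it. HK2 was lower by 1.90 ± 0.16 (adjusted p = 3.54e-06) and SLC2A3 by 1.21 ± 0.16 (adjusted p = 0.000101), with SLC2A3 again under the lower quartile in U266/LR7, at 5.27 and 5.25. ALDOC was higher by 1.23 ± 0.13 (adjusted p = 1.29e-05), ENO2 by 0.92 ± 0.16 (adjusted p = 0.000517) and HK1 by 0.70 ± 0.13 (adjusted p = 0.00113). BNIP3 (0.88), ADM (0.84), PDK1 (0.77) and BNIP3L (0.46) remained higher as well. With cyclic loess normalization the BNIP3 difference was 0.51 and that of ENO2 0.53, with quantile normalization that of ADM was 0.52, and the lowest PDK1 value over the settings was 0.39. The BNIP3L call was lost in 3 of 17 settings, where its lowest value was 0.16. All 8 genes higher without melphalan were higher with it, and 6 of the 11 lower ones were lower with it. Over all genes, 16.9% were higher and 17.8% lower without melphalan, and 27.7% and 24% with it. The share of all genes called the same way in both states was not computed. The 5 lower genes not called with melphalan were SLC2A1, PFKFB3, PFKM, TPI1 and VEGFA. The second, dimmer TPI1 cluster still read lower with melphalan in U266/LR7, at 10.28 and 10.05, compared with 10.76 and 10.68 in U266/s. SLC2A1 read 9.41 and 9.08 in U266/LR7 and 9.24 and 8.66 in U266/s, values that overlapped (0.30 ± 0.15, adjusted p = 0.109).

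Other members with a called difference under melphalan were EGLN1 (-0.71 ± 0.16, adjusted p = 0.00315), PFKP (-0.61), ANKRD37 (-0.54), GPI (-0.36) and GAPDH (-0.28), all lower in U266/LR7. Their calls were lost in 1, 2, 2, 3 and 4 of 17 settings in that order. With cyclic loess normalization EGLN1, PFKP and GPI stood at -1.08, -0.97 and -0.62, and with quantile normalization GAPDH stood at -0.08. The PGK1 (0.33) and ENO1 (0.30) RNAs were higher, calls that were lost in 9 and 6 of 17 settings. EGLN1 read 8.88 and 9.04 in U266/LR7, compared with 9.74 and 9.60 in U266/s, without overlap.

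**Figure D3:**
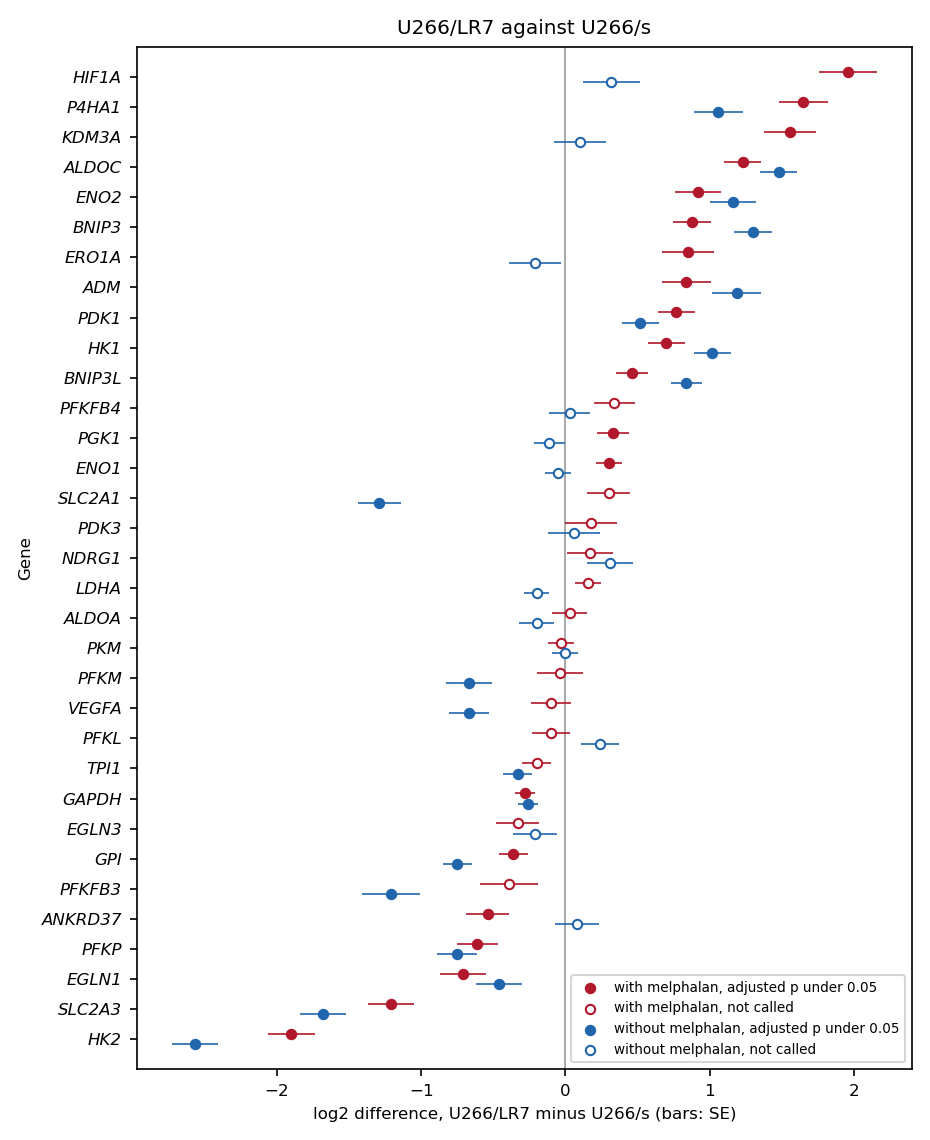
Log2 difference between U266/LR7 and U266/s (x axis, bars are standard errors) for each of the 33 genes (y axis), on arrays with melphalan (red) and without (blue), with filled points for an adjusted p under 0.05. HK2 and SLC2A3 were lower and ALDOC, ENO2, BNIP3, ADM, PDK1, HK1, BNIP3L and P4HA1 higher in U266/LR7 in both states, while HIF1A lay at 1.96 with melphalan and 0.32 without.

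The inhibitors were directed at miR-221 and miR-222, related microRNAs encoded next to each other on the X chromosome. Their mature 3p strands are shown because both inhibitors were given together. The RefSeq sequences (GRCh38.p14) carry the same seed, bases 2 to 8, in capitals.
hsa-miR-221-3p, chrX:45746180-45746202, minus strand: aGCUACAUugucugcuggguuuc
hsa-miR-222-3p, chrX:45747036-45747056, minus strand: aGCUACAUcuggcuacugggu

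None of the 33 genes passed the test for the inhibitors in limma, against 0.0434% of all genes (8 of 18417). At an unadjusted p under 0.05 there were 10 members, all of them higher with the inhibitors, against 3.14% of all genes that were higher at this level and 6.3% in either direction. HIF1A had the largest member difference, 0.77 ± 0.14 (adjusted p = 0.163), and ranked number 19 of 18417 genes by absolute size. In U266/LR7 it read 10.91 with inhibitors against 10.22 without in the presence of melphalan, and 11.32 against 10.14 in its absence. In U266/s the same pairs read 9.10 against 8.10 with melphalan, and 10.50 against 10.32 in its absence. HIF1A was thus higher with the inhibitors in 4 of 4 pairs, by 0.18 to 1.19.

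Several members had small differences of one sign in all 4 pairs. PGK1 (0.33 ± 0.08), ENO1 (0.25 ± 0.07), LDHA (0.21 ± 0.07), PKM (0.19 ± 0.06), SLC2A1 (0.37 ± 0.10), HK1 (0.25 ± 0.09) and VEGFA (0.28 ± 0.10) were higher with inhibitors in 4 of 4 pairs, with adjusted p of 0.416 or more. PFKFB4 (0.28), PFKP (0.14), GAPDH (0.12), ALDOA (0.07) and the hypoxia-induced BNIP3L (0.16) and BNIP3 (0.13) were likewise higher in 4 of 4 pairs, without a call. The share of all genes higher in 4 of 4 pairs was not computed. By pair, 22 and 26 of the 33 members were higher with inhibitors in U266/LR7 with and without melphalan, and 26 and 21 in U266/s. The shares of all genes in these pairs were 47.3% and 49.1% in U266/LR7 and 52.2% and 53.1% in U266/s. The median over members was 0.12, against 0.01 over all genes and 0.02 over the 276 genes with a mean signal above 12, where 7 members lay. In the same order of pairs, the medians over members were 0.08, 0.19, 0.21 and 0.07. Those over the 276 bright genes were 0.04, -0.03, 0.1 and -0.03. PFKL (-0.15) and PDK1 (-0.20) were lower with inhibitors in all 4 pairs, also without a call. SLC2A3 stood at 0.01 and 0.04 in the U266/LR7 pairs with and without melphalan and at -0.45 and -0.50 in the U266/s pairs.

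**Figure D4:**
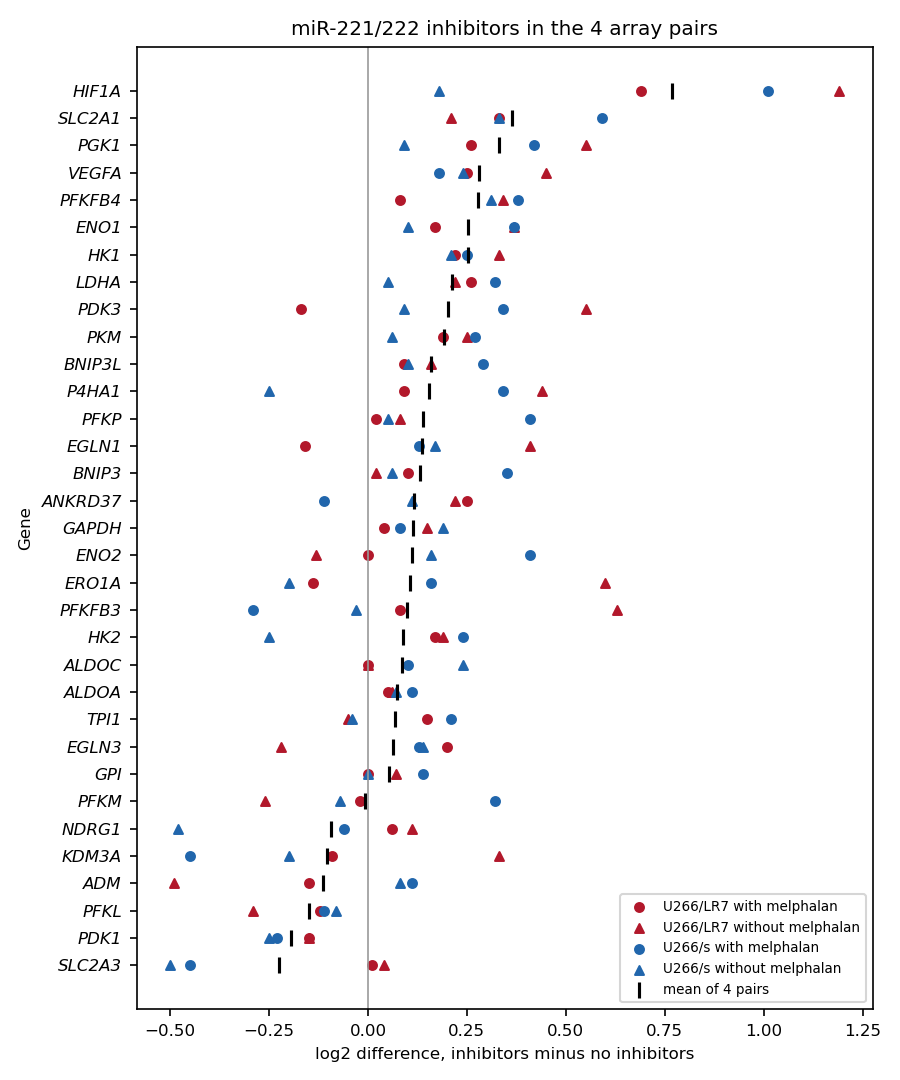
Log2 difference between arrays with and without inhibitors of miR-221 and miR-222 (x axis) for each of the 33 genes (y axis) in the 4 array pairs, U266/LR7 in red and U266/s in blue, with circles for pairs with melphalan, triangles for pairs without and a black tick for the mean. HIF1A had the largest mean, 0.77, with pairs at 0.18 to 1.19, and none of the genes passed the test.

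Other genes of the same pathways were described with 3 companion lists. In the list of other glycolysis and pyruvate genes, 10 of 33 were higher (30.3%) and 7 lower (21.2%) in U266/LR7 without melphalan, against 16.9% and 17.8% of all genes, and the median was -0.05. The largest called differences were SLC16A7, a monocarboxylate transporter (-3.00 ± 0.17, adjusted p = 1.6e-07), LDHC, the lactate dehydrogenase of testis (1.96), SLC2A12, a glucose transporter (1.66), SLC2A8 (-1.08) and PFKFB2 (0.92). LDHC read 4.54 and 4.66 in U266/s, under the lower quartile, which limits the size of its difference. SLC16A7 read 5.07 and 5.43 in U266/LR7, likewise under it, against 8.07 and 8.42 in U266/s. With melphalan in U266/s, 6 rose (18.2%) and 10 fell (30.3%), against 18.4% and 24.9% of all genes (median -0.14), led by SLC16A7 (-2.01), TIGAR, a fructose bisphosphatase and p53 target (-1.38), DLD (-1.36) and DLAT (-1.27), subunits of pyruvate dehydrogenase, and SLC2A12 (-0.94), whose values with melphalan, 5.73 and 5.68, lay under the lower quartile. In U266/LR7 0 rose and 2 fell (6.06%, against 3.61% of all genes), SLC2A13 (-0.69) and LDHC (-0.76), the second with a value of 5.59 under the lower quartile.

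Of the 12 measured HIF regulators, 2 were higher (16.7%) and 5 lower (41.7%) in U266/LR7 without melphalan, against 16.9% and 17.8% of all genes. VHL, the ubiquitin ligase subunit that recognises hydroxylated HIF1A, read 9.91 and 9.70 in U266/LR7, against 8.28 on both U266/s arrays (1.52 ± 0.15, adjusted p = 9.11e-06). The coactivator gene CREBBP (-1.40), ARNT2 (-1.27) and the coactivator gene EP300 (-0.93) were lower, and HIF1AN, a hydroxylase that blocks coactivator binding, was higher (0.93). With melphalan in U266/s 2 regulators rose, VHL by 0.73 and HIF3A by 0.40 (16.7%, against 18.4% of all genes), and 4 fell (33.3%, against 24.9%). EP300 fell by 1.31 ± 0.20 (adjusted p = 0.000274), CREBBP by 0.66, ARNT, the partner of HIF1A, by 0.60 and OS9 by 0.57. In U266/LR7 0 of the 12 regulators were called at an adjusted p under 0.05 in limma, where 3.02% of all genes rose and 3.61% fell.

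Of 36 other hypoxia-induced genes, 9 were higher (25%) and 6 lower (16.7%) in U266/LR7 without melphalan, against 16.9% and 17.8% of all genes (median -0.02). ERRFI1, a feedback inhibitor of EGF receptor signalling, was lower by 3.15 ± 0.14 (adjusted p = 2.49e-08), with 5.92 and 5.88, at the lower quartile, in U266/LR7, compared with 9.17 and 8.93 in U266/s. AK4 (1.26), BHLHE40 (1.12), PLOD2 (1.07) and INSIG2 (0.93) were higher. With melphalan 3 rose (8.33%) and 11 fell (30.6%) in U266/s, against 18.4% and 24.9% of all genes (median -0.04), including ERRFI1 (-1.75), WSB1 (-1.44), KDM4C (-1.36), GBE1 (-1.24) and, among those that rose, HILPDA (1.01). In U266/LR7 3 rose (8.33%, against 3.02% of all genes) and 2 fell (5.56%, against 3.61%). GPR146 rose by 1.37 ± 0.14 (adjusted p = 0.000317), STC2 by 0.83 and ERRFI1 by 0.70, whereas KDM4C fell by 1.15, to 5.70 and 5.55 with melphalan, under the lower quartile, and GBE1 by 0.90. ERRFI1 hence moved in opposite directions in the lines, with an interaction of 2.45 ± 0.20 (adjusted p = 8.61e-05).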

How the data were processed

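Biotin-labelled cDNA made from total RNA was hybridised to 8 one-colour Affymetrix arrays. The authors deposited log2 signals per transcript cluster. The submitters' processing notes name Affymetrix Expression Console and RMA, without versions. Of 33297 transcript clusters, 19460 had 1 gene symbol in the platform annotation, 1754 had several and 12083 had none there; 19429 of the first matched a RefSeq gene ID. The brightest cluster represented each of 769 genes with several, which left 18417 genes.

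From these values, limma (version 3.58.1, R 4.3.3) fitted line, melphalan, their interaction and inhibitors over all 8 arrays (3 residual degrees of freedom, median residual SD 0.139), using an intensity trend, and calls were made at a Benjamini-Hochberg adjusted p under 0.05 across all genes tested. The code was tested on simulated data. Members, lists and the model were chosen with earlier results of these data known. Full statistics go to the called members with the largest differences, up to 8 in each direction per comparison, and companion lists name up to 5 called members; a few others were named after their values were seen. Alternatives changed the normalization, filter, trend, model terms, transfection labels, cluster choice or left out an array. Promoter and microRNA sequences and gene spans are from RefSeq, GRCh38.p14, and no array coordinates were used. The number of arrays limits the precision.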

Additional observations from a re-analysis of the deposited data

Results flagged for a closer look

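The members below are listed because the melphalan response differed between U266/LR7 and U266/s by limma's interaction term. The interaction was 1.64 for HIF1A, 1.58 for SLC2A1, 1.47 for KDM3A and 1.06 for ERO1A, positive because these RNAs fell in U266/s. Over the 17 alternative settings the adjusted p reached at most 0.0156 for HIF1A, 0.00651 for SLC2A1, 0.02 for KDM3A and 0.0974 for ERO1A.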

How the results depend on the processing

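Each condition has 1 array and the labels give no replicate numbers, so no pairing of replicates was modelled. The inhibitor effect was averaged over array pairs matched for line and melphalan. Of the members called in the main setting, 14 of 19 kept their call in every alternative for the line difference without melphalan, 12 of 20 under melphalan, 8 of 17 for melphalan in U266/s, 0 of 2 in U266/LR7 and 3 of 4 for the interaction, and 0 changed sign. The count of called members stayed within 1.5 times for both line differences and, at 0, for the inhibitors. For melphalan in U266/s, leaving out 1 array gave 8 (without the U266/s control) to 21, against 17. In U266/LR7 the count of 2 became 1 with cyclic loess normalization. It was 0 with all two-way interactions modelled, with transfection as 3 levels and with all clusters in the fit. The shares of all genes called in these settings were 5.89%, 5.62%, 3.69% and 1.27%. Leaving out 1 array also lowered the count. The interaction count of 4 became 10 with quantile normalization, 7 with cyclic loess and 13 among genes above the median signal. It became 7 without an intensity trend and 8 with transfection as 3 levels. Leaving out 1 array moved the interaction count both ways. The shares of all genes called in the first 5 of these interaction settings were 24.1%, 21.2%, 40.4%, 23.8% and 24%, so that 13 of 30 members lay close to its background. Fewer genes were tested in the filtered setting; otherwise the cause was not tested. Members were dropped in that setting where their mean lay below the median of all genes, which left 30 of 33. Values at or under the lower quartile of all genes limit the differences of SLC2A3, SLC16A7, ERRFI1 and KDM4C in U266/LR7 and of LDHC and SLC2A12 in U266/s.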
